A study of Acipenser schrenckii with 2 samples.

Results

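The miR-17-92 cluster and its paralogues were read on miRNA arrays of a male and a female gonad of the Amur sturgeon (Acipenser schrenckii). Members were all miRNA probes whose name, without the species prefix, gives miR-17, miR-18, miR-19, miR-20, miR-25, miR-92, miR-93, miR-106 or miR-363, with any letter or arm. The rule found 40 of the chip's 663 miRNA probes, with 40 distinct targets and 29 of its 463 names. The rule itself reads names and no measured values.

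The male gonad and the female gonad each came from 1 fish at 11 months in normal condition, an age that the labels describe as early in sex differentiation. Each RNA was hybridised to 1 single-colour Cy3 array that carries every miRNA probe as 5 repeat spots. The series asks which miRNAs differ between the sexes. With 1 fish and 1 array per sex there was no test between them, and every ± below is an SD over the 5 spots of a probe on 1 array. That spread is technical and holds no variation between fish.

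The miR-17-92 cluster is a single primary transcript that is cut into several miRNAs, and vertebrates hold related copies of it. In mammals these are the miR-106a-363 cluster and the miR-106b-25 cluster. The miR-106b-25 cluster lies within an intron of MCM7, a gene of DNA replication. The transcript is induced by MYC and E2F factors, and its products hold down inhibitors of the cell cycle and promoters of cell death. A miRNA chooses its targets mainly through its seed, bases 2 to 8 from the 5′ end, so members with a common seed can act on common mRNAs. In mice the cluster is active in primordial germ cells and in spermatogonia.

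Members were put into 4 seed groups by the number in their names. Probes with the most frequent seed of their group are called leading-arm here. One or more of these are shown for each group so that their common seed, in capitals, can be read beside the bases in which they differ. Sequences are the targets printed for the probes in the chip's own annotation. The prefixes dre, ccr, ipu and ola are those of miRBase for zebrafish, common carp, channel catfish and Japanese medaka. The sturgeon's own sequences were not used here.
dre-miR-17a-5p: cAAAGUGCuuacagugcaggua
ola-miR-106a: uAAAGUGCuuacagugcaggu
dre-miR-20a-5p: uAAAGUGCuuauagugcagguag
dre-miR-20b: cAAAGUGCucacagugcagguag
dre-miR-93: aAAAGUGCuguuugugcaggua
ccr-miR-18a: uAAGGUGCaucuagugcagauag
ccr-miR-18b: uAAGGUGCauuuagugcagauag
dre-miR-19b-3p: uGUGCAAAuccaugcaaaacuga
dre-miR-19d: uGUGCAAAcccaugcaaaacuga
dre-miR-25: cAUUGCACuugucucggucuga
dre-miR-92a: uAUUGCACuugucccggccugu
dre-miR-92b: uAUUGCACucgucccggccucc
dre-miR-363: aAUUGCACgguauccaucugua

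The seed AAAGUGC was held by 9 probes for miR-17, miR-20, miR-93 and miR-106, called the miR-17 seed group here. AAGGUGC was held by 7 probes of miR-18, GUGCAAA by 7 of miR-19 and AUUGCAC by 7 of miR-25, miR-92 and miR-363, the miR-92 seed group. No other probe of the chip held any of these seeds, so the 30 probes that carry them are all members. The remaining 10 members read the opposite arm of a hairpin and have other seeds, though their names place them in the same groups. The 3 catfish probes among them have no arm in their names, and 1 is shown because its name alone does not tell that it reads the opposite arm.
ipu-miR-19b: aGUUUUGCugguuugcauucagc

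Most leading-arm members were well above background in both gonads. A probe was counted as detected where at least 3 of its 5 spots were brighter than 95% of the empty spots on that array. That limit was 112.81 on the male and 103.49 on the female array, against empty-spot medians of 80.54 and 86.72. The limit thus lay farther above background on the male array, where 430 probes of the chip were detected, against 476 on the female array. Of the 30 leading-arm probes, 28 were detected on the male array and 28 on the female array, and the miR-18c probes ccr-miR-18c and dre-miR-18c were detected on neither. Their intensities above the empty-spot median, before normalization, ran up to 8019 on the male and 7301 on the female array, with medians of 2777 and 1790. The opposite-arm probes reached at most 80.8 on the male and 37.6 on the female array. Of these 10, only dre-miR-17a-3p and dre-miR-20a-3p were detected on both arrays, ccr-miR-20a-3p on the male array only and ipu-miR-19b on the female array only. Different probes bind with different strength, so these levels do not rank the miRNAs. Some targets with different names differ in only 1 or 2 bases over their shared length. Those of ola-miR-106a and dre-miR-20b each differ from ccr-miR-17-5p by 1 base, and that of ola-miR-92b from dre-miR-92a by 2. Whether the probes tell such miRNAs apart was not tested, so a reading named after a miRNA is that of its probe.

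**Figure D1:**
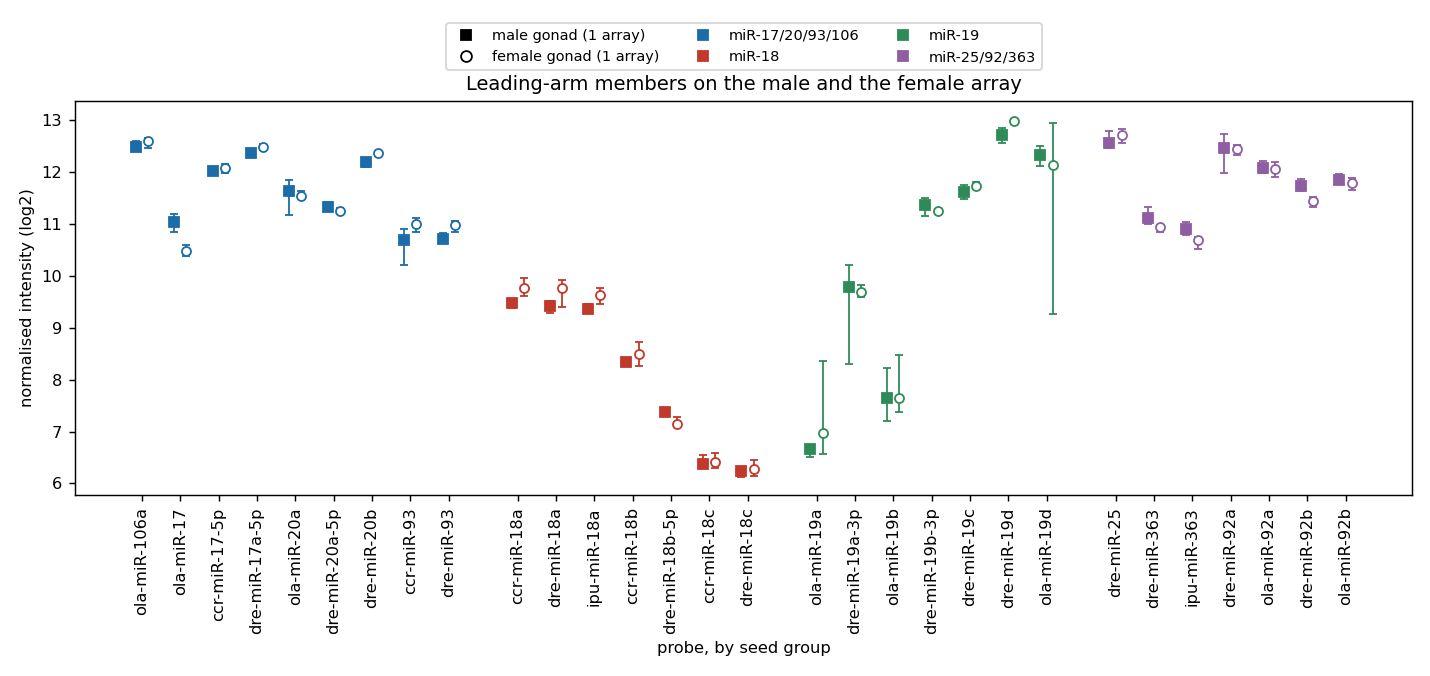
Normalised intensity (log2, y axis) of each leading-arm member (x axis, by seed group) on the male array (filled squares) and the female array (open circles), as means of 5 spots with bars to the lowest and highest spot. The pairs of symbols lie close together, the miR-18c probes sit near background on both arrays, and the long bar of ola-miR-19d is set by a single female spot; heights of different probes are not comparable.

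No member differed between the gonads by 2-fold. The size rule asked for a difference of at least 1 on the log2 scale of normalised intensity, detection on the brighter array and no overlap between the spots of the arrays. Levels below are on that log2 scale. The rule took 0 of 32 detected members as higher in the male gonad, where 4.69% of the 490 detected probes of the chip passed. It took 0 as higher in the female gonad, where 1.63% of the chip passed. At 1.5-fold the count was again 0 in either direction, beside 10.2% of the chip higher in the male and 7.76% higher in the female.

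The members' differences, given as male minus female on the log2 scale, ran from -0.35 to 0.56 with a median of 0.00, and 16 lay above and 16 below 0. Over all detected probes the range was -1.30 to 2.30 and the median -0.06. The interquartile range was -0.16 to 0.10 for members and -0.29 to 0.22 for the chip. Spots of the arrays did not overlap, at any size of difference, for 5 members higher in the male and 5 higher in the female, 15.6% each, beside 19.4% and 23.7% of the chip. The 5 on the male side were ola-miR-17, dre-miR-92b, ipu-miR-363, dre-miR-363 and dre-miR-18b-5p. The 5 on the female side were ccr-miR-18a, ipu-miR-18a, dre-miR-93, dre-miR-19d and dre-miR-20b.

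**Figure D2:**
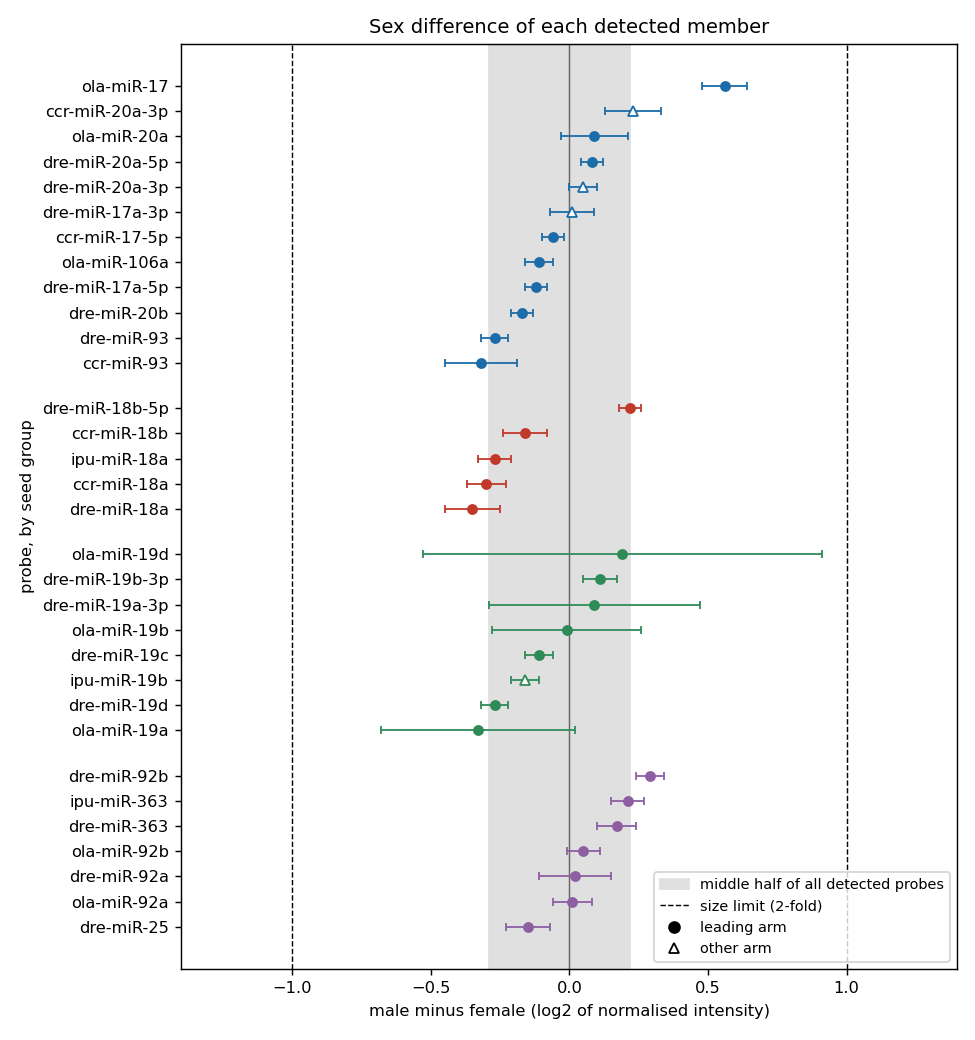
Male minus female difference (log2 of normalised intensity, x axis) of each of the 32 detected members (y axis, by seed group), with bars of 1 standard error over repeat spots; filled circles are leading-arm and open triangles opposite-arm probes. All lie inside the 2-fold limits (dashed), and the grey band is the interquartile range of all detected probes, -0.29 to 0.22.

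**Figure D3:**
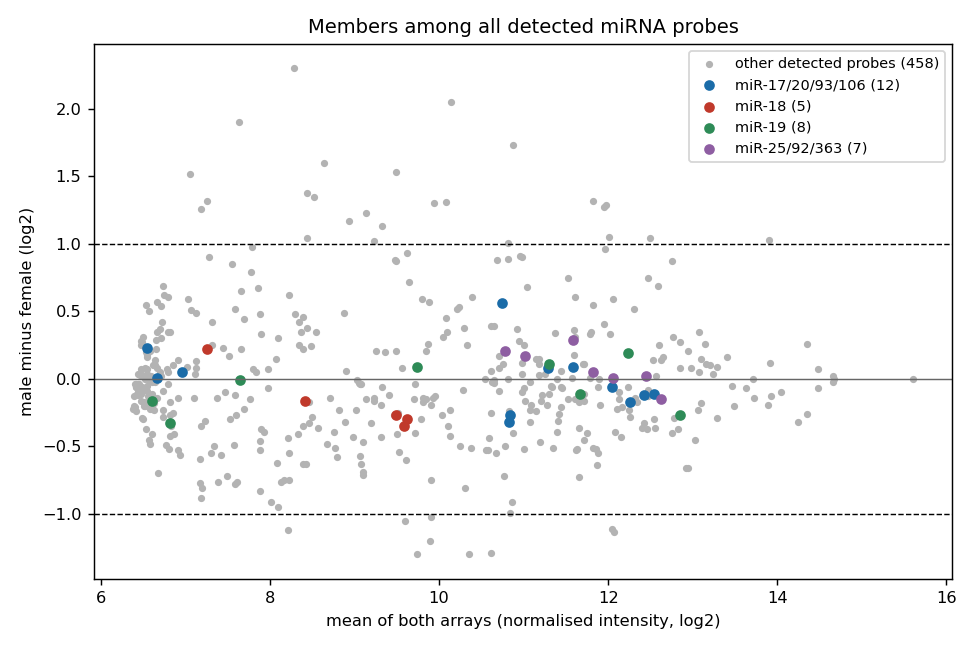
Male minus female difference (log2, y axis) against the mean normalised intensity of both arrays (log2, x axis) for the 490 detected miRNA probes, with members coloured by seed group. Members lie between -0.35 and 0.56, while other probes run from -1.30 to 2.30.

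These differences are relative to the chip as a whole, because the arrays were given a common distribution. The scale before normalization showed the male array above the female, by 0.45 in the median of the 416 probes detected on both and by 0.54 in that of the 30 members among them. Control probes marked P in their names read -0.24 in the median (16 probes, male minus female). Those for 5S RNA read 0.00 (6 probes), and all remaining controls, empty spots aside, read 0.48 (27 probes). The part of these shifts in the members' differences was not tested. Every member described below as higher in the female gonad is so relative to the chip. An equal change of all members together with the rest of the chip would not be visible here, and fewer cells of a type cannot be told apart from less RNA per cell in whole gonads.

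The miR-17 seed group holds the seed best known for repression of cell cycle inhibitors such as CDKN1A. Its 9 leading-arm probes had a median difference of -0.11, with 3 above and 6 below 0. miR-17, the name-giving product of the cluster, read 12.36 ± 0.07 in the male gonad, against 12.48 ± 0.05 in the female on dre-miR-17a-5p. It read 12.01 ± 0.04 in the male gonad, against 12.07 ± 0.07 in the female on ccr-miR-17-5p. The spots of the arrays overlapped for each of these probes, and the differences were -0.12 and -0.06. miR-106a, which shares the seed and belongs to the paralogous cluster in mammals, read 12.48 ± 0.09 in the male gonad, against 12.59 ± 0.08 in the female on ola-miR-106a, with overlapping spots. Over the shared length its target differs from that of ccr-miR-17-5p only at base 1, so it may not be a separate reading.

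miR-20 has several forms on the chip, among them miR-20a of the miR-17-92 cluster and miR-20b of its X-linked paralogue in mammals. miR-20a read 11.33 ± 0.08 in the male gonad, against 11.25 ± 0.05 in the female on dre-miR-20a-5p. On ola-miR-20a it read 11.62 ± 0.27 in the male gonad, against 11.54 ± 0.07 in the female. The spots overlapped on either probe, at differences of 0.08 and 0.09. miR-20b read 12.18 ± 0.08 in the male gonad, against 12.35 ± 0.03 in the female on dre-miR-20b. Its spots did not overlap, with the female higher by 1.13-fold after normalization and a difference of 0.44 toward the male before it. With cyclic loess in place of quantile normalization the difference was 0.04.

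miR-93, a product of the miR-106b-25 cluster in mammals, leaned to the female gonad on both of its probes after normalization, while before it they read 0.31 (dre-miR-93) and 0.27 (ccr-miR-93), toward the male. dre-miR-93 read 10.71 ± 0.08 in the male gonad, against 10.97 ± 0.08 in the female. ccr-miR-93 read 10.68 ± 0.28 in the male gonad, against 10.99 ± 0.11 in the female. The differences were -0.27 and -0.32, or 1.20-fold and 1.25-fold higher in the female, and the spots overlapped for the carp probe but not for the zebrafish probe. Without 1 low male spot, ccr-miR-93 differed by -0.19. miR-25, the other product of that cluster on the chip, read 12.56 ± 0.14 in the male gonad, against 12.71 ± 0.10 in the female on dre-miR-25, a difference of -0.15 with overlapping spots.

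The highest difference among all members came from a short probe. The target of ola-miR-17 ends 4 bases before that of dre-miR-17a-5p and is otherwise contained in it.
ola-miR-17: cAAAGUGCuuacagugca
It read 11.03 ± 0.16 in the male gonad, against 10.47 ± 0.09 in the female, 1.47-fold higher in the male. Its spots did not overlap, while the longer probes of the same miRNA read -0.12 and -0.06. The probes of miR-17 therefore did not give a common direction.

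miR-18, known in mice as a regulator of the heat shock factor HSF2 in male germ cells, had the lowest median of the seed groups. Over its 5 detected probes the median difference was -0.27, with 4 below 0. ccr-miR-18a read 9.47 ± 0.06 in the male gonad, against 9.77 ± 0.13 in the female. dre-miR-18a read 9.41 ± 0.10 in the male gonad, against 9.76 ± 0.21 in the female. ipu-miR-18a read 9.36 ± 0.07 in the male gonad, against 9.63 ± 0.12 in the female. Before normalization their differences were 0.30 (ccr-miR-18a), 0.25 (dre-miR-18a) and 0.30 (ipu-miR-18a), toward the male. After it the 3 miR-18a probes were 1.20-fold to 1.28-fold higher in the female gonad, without overlap of spots for the carp and catfish probes and with overlap for the zebrafish probe. Their targets are the same sequence at lengths of 20 to 23 bases, so they are not independent readings.

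miR-18b differs from miR-18a by the substitution C11U, counted from 1 at the 5′ end, and its probes disagreed. ccr-miR-18b read 8.34 ± 0.05 in the male gonad, against 8.50 ± 0.17 in the female, with overlapping spots. dre-miR-18b-5p, whose target is 1 base shorter, read 7.37 ± 0.04 in the male gonad, against 7.15 ± 0.08 in the female, with no overlap. After quantile normalization the probes thus lay on opposite sides of 0, while before it both read 0.69, toward the male. Neither sign held under every normalization. ccr-miR-18b read 0.25 with cyclic loess, where the chip's median was 0.02. With scaling to the 75th percentile of the probes detected on both arrays it read 0.09, with the chip at -0.23. dre-miR-18b-5p read -0.04 with scaling to that of each array's own detected probes. The chip's median was then -0.36, so dre-miR-18b-5p still lay above the chip. The opposite-arm probe dre-miR-18b-3p and the miR-18c probes, whose target differs from miR-18a by A13U, C17U and A20U, were detected on neither array.

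miR-19 had a median difference of -0.01 over its 7 leading-arm probes, with 3 above and 4 below 0. miR-19b read 11.36 ± 0.13 in the male gonad, against 11.24 ± 0.03 in the female on dre-miR-19b-3p. miR-19c read 11.61 ± 0.10 in the male gonad, against 11.72 ± 0.06 in the female on dre-miR-19c. Spots overlapped for both, and the differences of 0.11 and -0.11 lay on either side of 0.

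miR-19d differs from miR-19b by U9C. dre-miR-19d read 12.71 ± 0.10 in the male gonad, against 12.98 ± 0.04 in the female, 1.21-fold higher in the female with no overlap of spots, and its difference before normalization was 0.13, toward the male. ola-miR-19d, 1 base shorter, read 12.33 ± 0.14 in the male gonad, against 12.13 ± 1.60 in the female. One of its female spots read 9.27, against a median of 12.80 over the 5. Its difference was 0.19 with and -0.42 without that spot, the second on the same side as that of dre-miR-19d.

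Single spots also set the direction or size of other miR-19 readings. dre-miR-19a-3p read 9.78 ± 0.84 in the male gonad, against 9.69 ± 0.10 in the female, and its difference was 0.09 with and 0.43 without 1 low male spot. The short probe ola-miR-19a was near the detection limit, at 6.66 ± 0.08 in the male gonad, against 6.98 ± 0.77 in the female, and differed by -0.33 with and 0.22 without 1 high female spot. ola-miR-19b, of the same length, read 7.64 ± 0.38 in the male gonad, against 7.65 ± 0.47 in the female. Spots of the arrays overlapped for these 3 probes, for dre-miR-19a-3p only through the male spot at 8.29, and the medians of its spots were 10.13 in the male and 9.70 in the female.

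The seed of the miR-92 seed group is known in mammals to act on the pro-apoptotic gene BCL2L11. The group had a median difference of 0.05 over 7 probes, with 6 above and 1 below 0. When each array was scaled to the 75th percentile of its own detected probes the median was -0.08, with the chip's at -0.36. Set against the chip it was 0.28 there and 0.11 as reported. miR-92a, the last product of the miR-17-92 transcript, read 12.46 ± 0.28 in the male gonad, against 12.44 ± 0.08 in the female on dre-miR-92a. It read 12.07 ± 0.09 in the male gonad, against 12.05 ± 0.12 in the female on ola-miR-92a. The differences of 0.02 and 0.01 had overlapping spots.

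miR-92b and miR-363 leaned to the male gonad. miR-92b, which mammals transcribe from a locus of its own, read 11.72 ± 0.10 in the male gonad, against 11.43 ± 0.07 in the female on dre-miR-92b, 1.23-fold higher in the male with no overlap. From the target of ola-miR-92b to that of dre-miR-92b the only substitution over the shared length is U10C, counted from the 5′ end. ola-miR-92b read 11.84 ± 0.07 in the male gonad, against 11.79 ± 0.10 in the female, with overlap. miR-363, a product of the miR-106a-363 cluster in mammals, read 11.10 ± 0.14 in the male gonad, against 10.93 ± 0.07 in the female on dre-miR-363. It read 10.89 ± 0.09 in the male gonad, against 10.68 ± 0.10 in the female on ipu-miR-363. Neither miR-363 probe had overlapping spots, and the male was higher by 1.13-fold and 1.16-fold. When each array was scaled to the 75th percentile of its own detected probes, dre-miR-363 read -0.02, with the chip's median at -0.36.

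The opposite-arm probes stayed close to the detection limit. dre-miR-20a-3p read 6.98 ± 0.11 in the male gonad, against 6.94 ± 0.05 in the female, and dre-miR-17a-3p 6.68 ± 0.18 in the male gonad, against 6.67 ± 0.04 in the female. ccr-miR-20a-3p, detected on the male array only, read 6.67 ± 0.08 in the male gonad, against 6.43 ± 0.21 in the female. ipu-miR-19b, detected on the female array only, read 6.53 ± 0.07 in the male gonad, against 6.68 ± 0.07 in the female. Above the empty-spot median it read 28.1 on the male and 27.0 on the female array, so its detection on 1 array reflects the unequal limits. Spots overlapped for all 4, so no difference between the gonads was measurable on the opposite arm, and no fold is given where an array was below the limit. The remaining 6, ccr-miR-17-3p, ipu-miR-17b, ipu-miR-19a, dre-miR-18b-3p, dre-miR-19a-5p and dre-miR-19b-5p, were detected on neither array.

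Probes for nearly the same target could be set against each other. In 15 pairs of members detected on both arrays, one target contained the other whole, and the gap between their differences had a median of 0.08 (log2) and ran from 0.01 to 0.68. In 9 of the 15 pairs the differences had the same sign. The pairs are not independent, because probes such as those of miR-18a and ola-miR-17 enter more than 1 pair. The pair of dre-miR-19c and ola-miR-19b also sets different miRNA names against each other. Among the 9 pairs with at most 2 bases between their lengths the median gap was 0.05, and the highest, 0.47, was that of the miR-19d probes. The highest gap of all, 0.68, was between ola-miR-17 and dre-miR-17a-5p. The gap was at most 0.1 in 9 of the 15 pairs, and the widest gaps exceeded the distance of 0.32 between the seed groups farthest apart.

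The seed groups farthest apart were the miR-92 seed group and miR-18, whose medians lay 0.32 apart on the log2 scale. Over 19 other ways of processing the distance stayed above 0 and ran from 0.18 without a detection filter to 0.57 in the authors' deposited table. The settings without normalization, with P controls and with either scaling to the 75th percentile differ only by a shift of a whole array. Such a shift cannot change the distance, which was 0.35 in each, so these are not separate checks. The distance rests on 7 and 5 probes, where some targets contain another whole, on 1 pair of fish, so it describes these arrays only. Across the 28 leading-arm probes detected on both arrays, the correlation of the difference was r = 0.14 and rho = -0.01 with the GC content of the target, r = -0.14 and rho = -0.06 with its length, and r = 0.11 and rho = 0.04 with the mean level. These probes share arrays and often sequence.

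**Figure D4:**
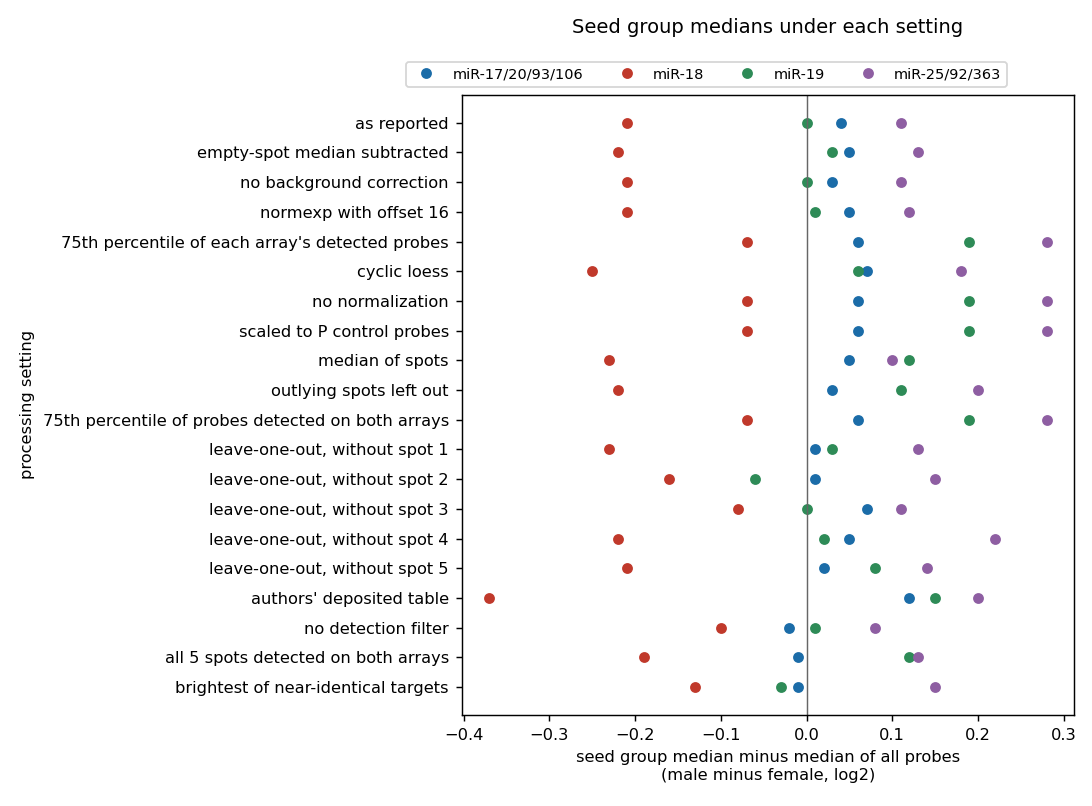
Median difference of each seed group, with its detected opposite-arm probes, minus the median of all detected probes (male minus female, log2, x axis) under the reported processing and 19 others (y axis), coloured by seed group. The miR-18 median lies left of the other groups and of 0 in each of them, and that of the miR-92 seed group (labelled miR-25, miR-92 and miR-363 together) lies right of 0.

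Other miRNAs tied to the same processes were counted in the same way. The miR-430 probes, whose seed AAGUGCU overlaps that of miR-17 shifted by 1 base and which clear maternal mRNAs in early fish embryos, were detected for 3 of 8, with differences of 0.14 to 0.37 and 0 past the 2-fold rule. These 3 read at most 6.98, close to the detection limit, and dre-miR-430b was detected on only 1 array. Of 55 probes for cell cycle miRNAs, let-7 and the miR-15, miR-34 and miR-221 families among them, 52 were detected, with a median of 0.22. Of these, 8 passed the rule as higher in the male and 0 as higher in the female gonad. They were probes for let-7 and miR-34, known to restrain proliferation, and for miR-457. Over the detected probes of the list, 37 differences lay above and 15 below 0. Not all let-7 probes leaned to the male: dre-let-7i read -0.40, dre-let-7j -0.43 and dre-let-7a 0.09. The 8 include near-identical targets, as for dre-let-7g and ola-let-7g, and dre-let-7c had a female spot SD of 1.19. Over the chip the shares past the rule were 4.69% and 1.63%, and whether these miRNAs differ from the members was not tested.

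The tissue label was checked against miR-202, a miRNA of vertebrate gonads. Of its 3 probes only ipu-miR-202 was detected, at 8.58 ± 0.31 in the male gonad, against 6.68 ± 0.12 in the female. dre-miR-202-3p was detected on neither array, nor was dre-miR-202-5p, whose target is that of ipu-miR-202 with 1 more base, so near-identical probes disagreed on this marker. Markers of particular cell types were summed as intensity above background, before normalization. All 5 probes of the male germ cell list, for miR-34 and miR-449, are also in the cell cycle list, so these lists are not separate readings. The male germ cell list had 4 of 5 probes detected and summed to 6290 on the male and 1187 on the female array. Markers of other tissues were present on both arrays: 6 of 6 erythroid probes were detected, with sums of 10411 on the male and 10393 on the female array, and 12 of 15 leukocyte probes, with 38526 on the male and 31338 on the female array. For striated muscle 20 of 22 were detected, with 58918 on the male and 63771 on the female array. The muscle probe pol-miR-133-5p alone read 15.61 on each array after normalization. It was the brightest miRNA probe on both arrays, and quantile normalization gives such a probe the same value on each. By contrast, ccr-miR-133a-5p, dre-miR-133a-5p and ola-miR-133-5p read between 7.01 and 7.99. The next brightest muscle probe, dre-miR-1, read 11.29 on the male and 11.55 on the female array. The muscle sums thus rest largely on pol-miR-133-5p, though its exact share was not computed. Kidney and gut probes, 6 of 8 detected, summed to 3598 on the male and 5364 on the female array. For liver 2 of 4 were detected, with 489 on the male and 75.3 on the female array. Endothelial probes, 5 of 6 detected, summed to 14708 on the male and 11908 on the female array, and those of mesenchyme and smooth muscle, 14 of 15 detected, to 145429 on the male and 134052 on the female array. After normalization, 4 kidney and gut probes passed the 2-fold rule as higher in the female gonad. As higher in the male, 3 male germ cell probes, 2 liver probes, 1 leukocyte probe and ipu-miR-202 passed. The leukocyte probe was dre-miR-223, with a female spot SD of 0.95, while ola-miR-223 read -0.19. Over the detected leukocyte probes 5 differences lay above and 7 below 0, with a median of -0.11. The remaining marker lists had 0 past the rule. Over the chip, 4.69% passed as higher in the male and 1.63% as higher in the female. The 40 members summed to 95364 on the male and 66981 on the female array. All these sums count near-identical probes separately. They lie on the scale before normalization, where the male array read above the female by 0.45 in the median of probes detected on both. The part of these cell types in the members' values was not tested.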

How the data were processed

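Scanner files of both arrays and the authors' deposited table were used. Per the file headers, the scanner values are median Cy3 intensities per spot, and empty spots far above 0 show that no background was subtracted. The intensity table deposited by the authors holds 1 linear value per probe after steps not given in the sources used here. Per the labels' protocols, size-selected small RNA was tailed with poly(A) and tagged for Cy3 staining.

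Here the spots were corrected with normexp (offset 50, limma 3.58.1, R 4.3.3), the log2 values of a probe's 5 spots were averaged, and the arrays were quantile normalised over the 663 miRNA probes. This makes differences relative to the chip. Summaries used Python 3.11.15 with pandas 2.3.3. The size rule was tried on simulated data. The changes put in lay above its limit, only bright probes were scored and the spot spread was capped. Such a trial does not cover dim probes or probes with uneven spots. Precision is limited by having 1 array for each sex.

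Named were the brightest probe of each detected name, and the highest and lowest members of each seed group. Near-identical probes beside them were named after their values were seen. Members, lists and settings were chosen with earlier results of these data known. No genome was used, so no positions are given.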

Additional observations from a re-analysis of the deposited data

How the results depend on the processing

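Alternatives are listed as male then female counts, and medians are male minus female on the log2 scale. Group medians here take in the detected opposite-arm probes, unlike the leading-arm medians above: as reported they are -0.02 for the miR-17 family (miR-17, miR-20, miR-93 and miR-106, 12 probes), -0.27 for miR-18, -0.06 for miR-19 (8 probes) and 0.05 for the miR-92 family (miR-25, miR-92 and miR-363). Of 175 recomputed counts and medians, 146 stayed within 1.5 times (counts) or within the spot SD of a difference (medians). The members' count past the 2-fold rule stayed 0 in both directions except where the male array's general brightness was kept. Without normalization 1 member, ola-miR-17, passed as higher in the male, and with scaling to the P control probes 8 did. The chip then gave 74 and 0, and 131 and 0. Medians without normalization were 0.50 for all members, 0.43 for the miR-17 family, 0.30 for miR-18, 0.56 for miR-19 and 0.65 for the miR-92 family, while the chip's own median moved to 0.37. With each array scaled to the median of its P control probes, which differs from the median of their differences, they were 0.83, 0.76, 0.63, 0.89 and 0.98, with the chip at 0.70. Scaling to the 75th percentile of each array's detected probes gave -0.23 for all members, -0.30 for the miR-17 family and -0.43 for miR-18, with 25 female-higher probes on the chip and a chip median of -0.36. Over probes detected on both arrays, a setting added after seeing the data, it gave -0.17 for the miR-17 family, with the chip at -0.23. The authors' deposited table gave -0.43 for miR-18. For the chip alone, plain subtraction gave 41 and 29, offset 16 gave 15 female-higher, cyclic loess 4 female-higher, near-identical targets reduced 15 male-higher, and the 1.5-fold limit 50 and 38. Set against the chip's median, the miR-18 median lay below 0 in every setting, at -0.21 as reported. It was only -0.07 without normalization, with P controls and with either scaling to the 75th percentile. These settings differ from each other only by a shift of a whole array, so they are not separate checks. The value of -0.07 lies within the spot SD of a difference for miR-18, 0.15. So the female-leaning direction of miR-18 holds only relative to the chip, and its size depends on the normalization. Its own median was above 0 without normalization and with P controls. Apart from the shifts made by the scalings themselves, the cause was not tested. Leaving out spots far from their probe's median, also added after seeing the data, turned the sign of ola-miR-19d, ola-miR-19a, ola-miR-19b and dre-miR-17a-3p (-0.02) among detected members. No paired analysis was possible because each sex has 1 array. Dim probes, the opposite arms and miR-18c among them, lie too near background for a difference to show.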
